A study of Rattus norvegicus with 4 samples.

Results

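The receptor tyrosine kinases of the choroid plexus were described in 4 libraries of rat RNA. The members were the genes that the study lists as receptor tyrosine kinases of the choroid plexus, 40 in all, without CSF1R and without any gene that the study also places among its highest expressed kinases and phosphatases, which removed no further gene. That left 39 receptors of the 32883 gene IDs in the files. The study's list holds no gene under 0.5 TPM in male choroid plexus, so detection in that library follows from the choice of members. TPM is an abundance corrected for transcript length that adds up to 1000000 over the genes of a library.

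All rats were Sprague Dawley rats, 9 weeks old and untreated as far as the labels say. One library was made from the whole choroid plexus of 5 pooled males and another from that of 5 pooled females. Choroid plexus of 10 further males was digested, and cells carrying NKCC1, the Na+,K+,2Cl- cotransporter of the epithelium, were labelled with an antibody and sorted by FACS, a gate taking the bright and large cells. The last library was made from kidney proximal tubules of 5 pooled males, picked by hand after digestion with collagenase and pronase. The study's methods take the kidneys from the males that gave choroid plexus, so these pools appear to share animals. With 1 library per condition there is no spread between animals, no difference has a replicate check, and sex cannot be told apart from the pool. The 95% intervals given with values and ratios were computed from the expected counts and cover counting error only.

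Receptor tyrosine kinases are membrane proteins that bind a growth factor, a membrane-bound ephrin, collagen or another ligand outside the cell. Binding pairs or clusters the receptors, which phosphorylate tyrosines on each other and recruit adaptor proteins that feed the RAS and MAP kinase and the PI3 kinase and AKT cascades. The choroid plexus is a leaf of secretory epithelium over a stroma with fenestrated capillaries, pericytes, fibroblasts and macrophages, and receptors of this class are known from each of these cell types. FGF receptors are known from epithelia, VEGF receptors and TIE receptors from endothelium, and PDGF receptors from mural cells and fibroblasts.

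The expected counts summed to between 23873318 and 28324976 per library, and of each 1000000 counts the receptors held 3175 in male tissue, 3119 in female tissue, 3169 in sorted cells and 22.6 in the proximal tubule. Mitochondrially encoded genes took 70.7% of the counts of the proximal tubule library and 4.32 to 5.34% of the others. The FACS library held the epithelial markers TTR at 389655 TPM, FOLR1 at 2725 TPM and KCNJ13 at 685 TPM. In the whole male tissue these had 238565, 2058 and 1372 TPM. The FACS library also held the endothelial marker PLVAP at 178 TPM, the fibroblast marker DCN at 239 TPM and the immune marker CD74 at 2556 TPM. In the male tissue these had 105, 102 and 345 TPM. All 6 proximal tubule markers had counts in the proximal tubule library, with SLC7A13 at 2055 TPM and SLC13A1 at 107 TPM, against at most 0.020 TPM and 0 in the choroid plexus libraries. SLC5A2 was at 6.02 TPM in the tubule and 6.18 TPM in the male choroid plexus as deposited. With mitochondrially encoded genes removed from both and the rest rescaled, it had 21.6 and 6.74 TPM, a ratio of 3.20 (2.75 to 3.72).

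In the male choroid plexus, the TPM of the 39 receptors added up to 850.1, and 4 of them, FGFR2, FGFR1, PDGFRA and NTRK2, made up 52.9% of the sum. The median receptor had 8.0 TPM, and 15 receptors were under 5 TPM. The sum was 782 TPM in the female choroid plexus and 698 TPM in the FACS cells, and the same 4 genes held the 4 highest places in the female library. The ratio of the FACS sum to the male sum was 0.821, above the median ratio of 0.620 of all genes. The 10 highest genes held 51.5% of all TPM in the FACS library and 35.6% in the male library. In the FACS cells DDR1 and TYRO3 took places 3 and 4, ahead of NTRK2 and PDGFRA. The order of the receptors was similar in the choroid plexus libraries, with a Spearman rho across the 39 genes of 0.991 between the sexes and 0.952 between the FACS cells and the whole male tissue. These correlations are descriptions across genes that share a library, and genes are not replicates.

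**Figure D1:**
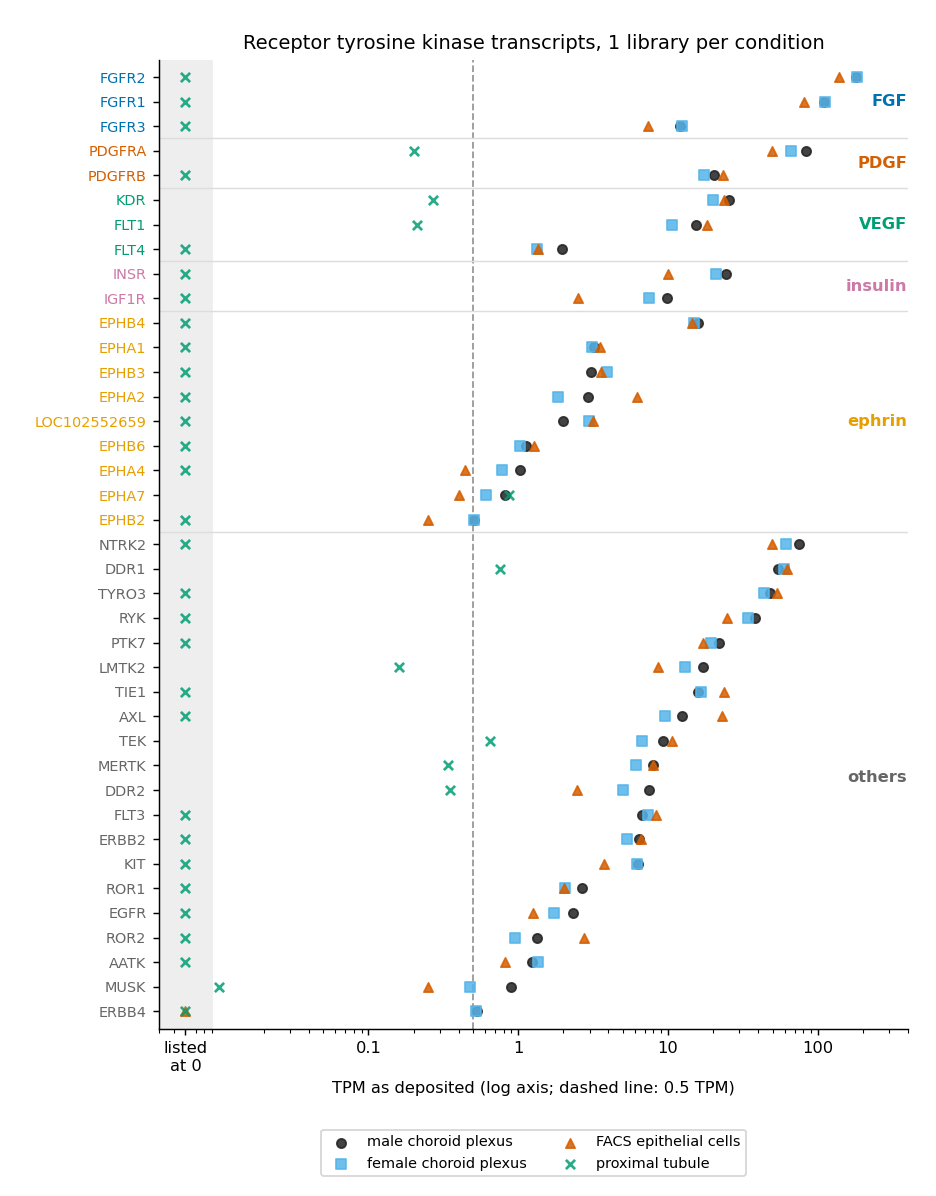
TPM as deposited (log axis) of each receptor in the 4 libraries, 1 library per condition, ordered by ligand family and by the level in the male choroid plexus; the dashed line is the cut-off of 0.5 TPM and the grey strip holds genes listed at 0. The 3 choroid plexus libraries lie close together for most receptors, while 29 of the 39 receptors are listed at 0 in the proximal tubule. As deposited, 3 receptors reach the line in the tubule, and 9 do so with mitochondrially encoded genes removed.

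The FGF receptors were the most abundant family named for a ligand, with 303 TPM over 3 genes or 35.7% of the receptor sum. FGFR2 (ENSRNOG00000016374) had 181 TPM in the male choroid plexus (95% counting interval 179 to 184), 183 TPM in the female choroid plexus, 139 TPM in the FACS cells and 0 in the proximal tubule. It placed 585 among all genes of the male library and was the highest receptor in each choroid plexus library. FGFR1 (ENSRNOG00000016050) had 110.2 TPM in the male library, 111 TPM in the female library, 81.2 TPM in the FACS cells and 0 in the proximal tubule. FGFR3 had 12.1, 12.4 and 7.39 TPM in the male, female and FACS libraries and was also listed at 0 in the proximal tubule. The counting interval of the ratio of female to male held 1 for all 3 genes, and the ratios of FACS cells to whole tissue were 0.765, 0.737 and 0.610. As the median ratio of all genes was 0.620, FGFR2 and FGFR1 lay above it and FGFR3 just below.

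Ligands and a partner of these receptors were in the choroid plexus libraries too. FGF1, a ligand of all FGF receptors, had 74.3 TPM in male tissue, 62.2 TPM in female tissue and 27.9 TPM in FACS cells. KL, which encodes alpha-Klotho, a coreceptor for endocrine FGF, had 695, 603 and 453 TPM. SDC4, a heparan sulphate proteoglycan of the cell surface, had 88.0, 95.1 and 158 TPM.

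Of the PDGF receptors, PDGFRA (ENSRNOG00000002244) had 83.4 TPM in the male choroid plexus (82.0 to 84.9), 66.3 TPM in the female choroid plexus, 49.3 TPM in the FACS cells and 0.200 TPM in the proximal tubule as deposited. With mitochondrially encoded genes removed and the rest rescaled, the tubule value was 0.717 TPM. PDGFRB (ENSRNOG00000018461), which marks pericytes in many tissues, had 20.4 TPM in the male library (19.6 to 21.2), 17.4 TPM in the female library, 23.1 TPM in the FACS cells (22.3 to 24.0) and 0 in the proximal tubule. The ratio of sorted cells to tissue was 0.590 for PDGFRA (0.574 to 0.607), near the median of 0.620 of all genes, and 1.13 for PDGFRB (1.07 to 1.19).

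The VEGF receptors together had 42.7 TPM in the male choroid plexus, 32.01 TPM in the female choroid plexus and 43.2 TPM in the FACS cells. KDR (VEGFR2, ENSRNOG00000046829), the main signalling receptor for VEGF-A on endothelium, had 25.5 TPM in male tissue, 20.1 TPM in female tissue and 23.5 TPM in FACS cells. FLT1 (VEGFR1), which binds VEGF-A tightly and signals weakly, had 15.3, 10.6 and 18.3 TPM. FLT4 (VEGFR3), best known from lymphatic endothelium, had 1.96, 1.34 and 1.35 TPM. In the proximal tubule, KDR and FLT1 had 57 and 53 expected counts, and FLT4 was listed at 0. The angiopoietin receptors of endothelium stood at similar levels, with TIE1 (ENSRNOG00000020173) at 15.9, 16.5 and 23.6 TPM and TEK (TIE2) at 9.25, 6.69 and 10.7 TPM.

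Both receptors of the insulin family were lower in the sorted cells than in the tissue, also relative to the median ratio of all genes of 0.620, at ratios of 0.410 (0.387 to 0.434) and 0.255 (0.221 to 0.293). INSR (ENSRNOG00000029986), the insulin receptor, had 24.2 TPM in the male choroid plexus, 21.0 TPM in the female choroid plexus and 9.93 TPM in the FACS cells. IGF1R (ENSRNOG00000014187), the receptor for IGF-1 and IGF-2, had 9.89 TPM in the male library (9.26 to 10.5), 7.51 TPM in the female library and 2.52 TPM in the FACS cells (2.22 to 2.85). Neither had a count in the proximal tubule. IGF2, a ligand of IGF1R and of an isoform of INSR, had 2848 TPM in male tissue, 2484 TPM in female tissue and 1919 TPM in FACS cells. IGFBP2, which binds IGF in the extracellular fluid, had 8158, 7698 and 9123 TPM.

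The 9 ephrin receptors, which take part in contacts between cells and in tissue boundaries, together had 30.4 TPM in the male choroid plexus, and EPHB4, known from venous endothelium, made up 15.8 TPM of it. The other 8 lay between 0.510 and 3.20 TPM. EPHA2 (ENSRNOG00000009222), a receptor known from epithelia, had 2.91 TPM in the male library from 260 expected counts, 1.83 TPM in the female library and 6.17 TPM in the FACS cells from 583 expected counts. LOC102552659, which the study describes as like EPHB2, had 90.8 expected counts in the male library and EPHB2 52.8. A fractional expected count of a gene is an estimate over reads that fit more than 1 gene. The levels of this pair are therefore uncertain, as is that of ERBB2 with 704 expected counts. Which genes share these reads was not analysed.

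The remaining 20 receptors held 39.5% of the male receptor sum. NTRK2 (ENSRNOG00000018839), the receptor for BDNF, had 74.7 TPM in male tissue, 61.2 TPM in female tissue and 49.4 TPM in FACS cells. DDR1 (ENSRNOG00000057125), a collagen receptor of epithelia, had 54.05, 59.97 and 62.37 TPM, and DDR2, its counterpart in mesenchymal cells, had 7.48, 5.03 and 2.47 TPM. The DDR genes differed in opposite directions between tissue and sorted cells, on either side of the median ratio of all genes, with ratios of 1.15 (1.11 to 1.20) and 0.330 (0.282 to 0.385). COL8A1 and COL8A2, genes of the network-forming collagen VIII, had 156 and 161 TPM in the male choroid plexus.

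Of the receptors for GAS6 and protein S, which mediate the uptake of dying cells and dampen inflammation, TYRO3 had 48.2 TPM in the male choroid plexus, 43.9 TPM in the female choroid plexus and 53.7 TPM in the FACS cells. AXL (ENSRNOG00000020716) had 12.5 TPM in the male library (11.7 to 13.2), 9.58 TPM in the female library and 23.0 TPM in the FACS cells (22.1 to 24.0). MERTK, which is prominent on macrophages, had 8.0, 6.09 and 7.97 TPM. GAS6 itself had 1399 TPM in male tissue, 1319 TPM in female tissue and 1468 TPM in FACS cells.

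The receptors of Wnt signalling were led by RYK with 38.0 TPM and PTK7 with 21.9 TPM in the male choroid plexus, while ROR1 and ROR2 had 2.67 and 1.33 TPM. ROR2 had 2.73 TPM in the FACS cells from 260 expected counts, against 120 in the male library. Of the EGF receptor family, ERBB2 had 6.45 TPM, EGFR 2.32 TPM and ERBB4 0.530 TPM in the male library. ERBB4 had 46 expected counts in the male library, 44 in the female library and 0 in the FACS cells. There, 3 counts would amount to 0.0328 TPM. The male level of 0.530 TPM (0.388 to 0.707) was 16.1 times this floor, a ratio of estimates and not a lower bound. KIT and FLT3, receptors of blood and immune cell precursors, had 6.29 and 6.73 TPM in the male library and 3.71 and 8.32 TPM in the FACS cells. LMTK2 and AATK, lemur kinases with no established ligand, had 17.3 and 1.23 TPM, and MUSK, the receptor that organises the neuromuscular junction, had 0.900 TPM from 57 expected counts.

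**Figure D2:**
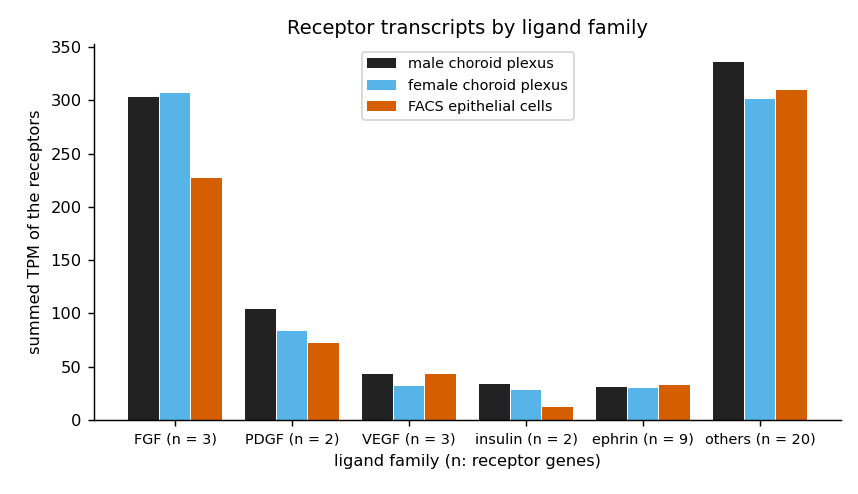
Summed TPM of the receptors of each ligand family in the male choroid plexus, the female choroid plexus and the FACS cells, 1 library each, with bars from 0. The FGF receptors sum to 303, 307 and 227 TPM, and the insulin family has 34.1 TPM in the male tissue and 12.5 TPM in the FACS cells. The ratio of FACS cells to male tissue is 0.749 for the FGF sum and 0.365 for the insulin sum, where the median ratio of all genes is 0.620.

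The comparison of the sorted cells with the whole tissue asked how far the receptor values of the sorted library stand for those of the tissue. At the cut-off of 0.5 TPM, 34 of the 39 receptors were detected in the FACS cells, and of the 13598 genes that reached it in the male tissue 93.3% also did so in the FACS cells. The 5 below it, EPHA4, EPHA7, EPHB2, MUSK and ERBB4, had at most 1.02 TPM in the whole tissue. Ratios were taken on the log2(TPM + 1) scale, on which differences of low genes come out too small, and relative to the median of the 14024 genes tested, which was -0.58 on the log2 scale. In bulk RNA, fewer cells of a type and less RNA per cell cannot be told apart. The sorted cells came from another pool of animals and were digested, labelled and sorted. Cell type, handling and pool therefore cannot be told apart in this comparison. A receptor was called where its relative log2 ratio was 1 or more in either direction, a 2-fold difference.

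Relative to all genes, the receptors had a median log2 ratio of 0.30, and 28 of the 39 lay above the median of all genes, as 50.0% of all genes do. The pseudocount draws a receptor of low TPM towards a log2 ratio of 0 and so above the median, and EGFR, EPHA4, EPHA7 and EPHB2 were above it only in this way. As plain ratios, 26 of the 38 receptors with counts in both libraries were above the median of 0.620, NTRK2 and RYK now among them. AXL, EPHA2, ROR2, TIE1 and LOC102552659 passed 2-fold higher, 5 of 39, where 10.9% of all genes did so. IGF1R alone passed 2-fold lower, 1 of 39, where 6.03% of all genes did so. The called shares of the receptors were therefore near the background in both directions. In each comparison the genes tested reached 0.5 TPM in either library, while the receptors were chosen for reaching it in male tissue. The background is therefore not fully alike. Relative log2 ratios were 1.46 for EPHA2, 1.42 for AXL, 1.26 for ROR2, 1.13 for TIE1 and 1.05 for LOC102552659, and -1.05 for IGF1R. With ratios not taken relative to the median, none of the 39 receptors passed 2-fold higher, and DDR2, IGF1R and INSR passed 2-fold lower.

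As plain ratios of TPM in the sorted cells to TPM in the tissue, EPHA2 stood at 2.12 (1.83 to 2.46), ROR2 at 2.05 (1.65 to 2.57), AXL at 1.85 (1.72 to 1.99), TIE1 at 1.49 (1.39 to 1.59) and LOC102552659 at 1.58 (1.21 to 2.07). The interval of LOC102552659 does not cover the uncertainty of its fractional expected counts. EPHB2, with a fractional count in the male library, stood at 0.490 (0.295 to 0.790). MUSK and DDR2 were low too, but neither was called on the log2(TPM + 1) scale, where their relative log2 ratios were -0.02 and -0.71. ERBB4, with no count in the FACS cells, was not called on this scale either, at -0.03. The lowest ratios with counts in both libraries were 0.255 for IGF1R (0.221 to 0.293), 0.278 for MUSK (0.151 to 0.484) and 0.330 for DDR2. The counting interval of the ratio lay above 1 for 11 of 38 receptors, where 15.0% of all genes did so, below 1 for 22, where 69.2% of all genes did so, and held 1 for 5. Against the female choroid plexus in place of the male, AXL, EPHA2, FLT1, ROR2 and TEK passed 2-fold higher and no receptor passed 2-fold lower.

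**Figure D3:**
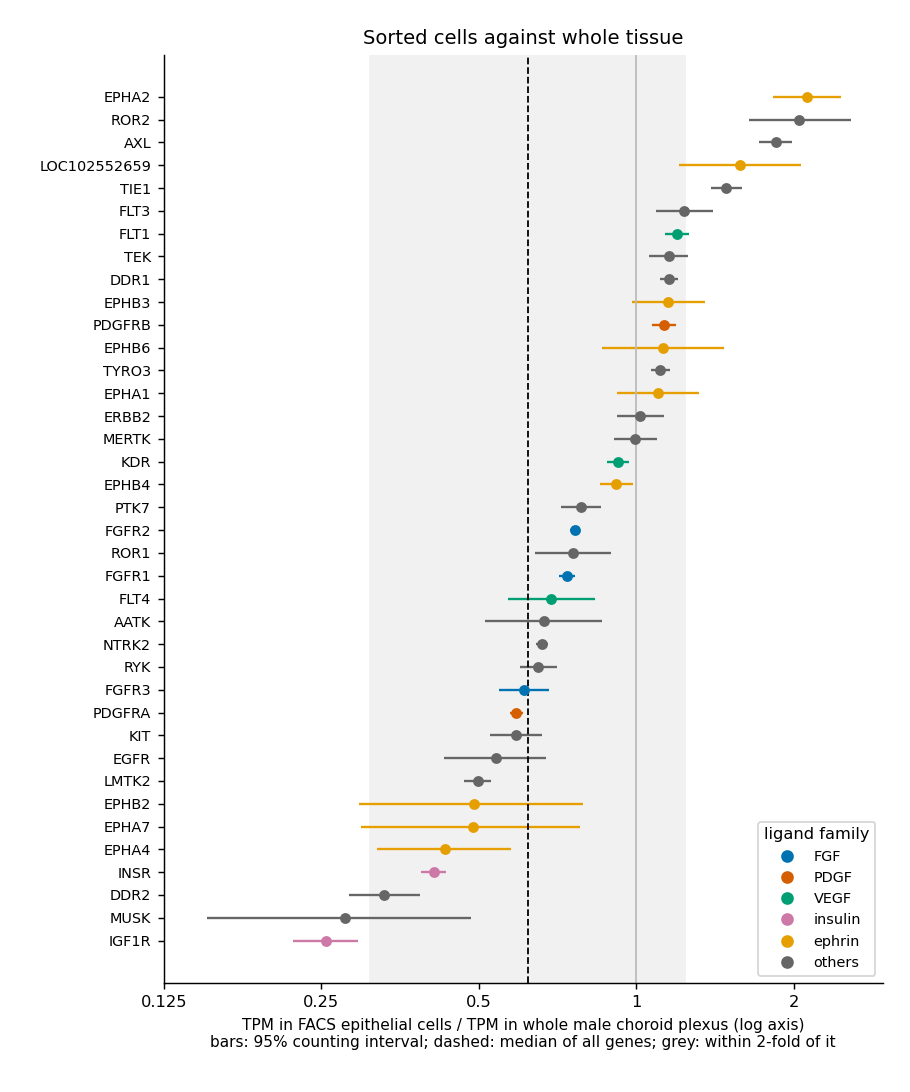
Ratio of TPM in the FACS epithelial cells to TPM in the whole male choroid plexus (log axis) for the 38 receptors with counts in both libraries, coloured by ligand family; bars are 95% counting intervals, the dashed line is the median ratio of all genes with counts in both (0.620) and the grey band lies within 2-fold of it. EPHA2, ROR2, AXL, LOC102552659 and TIE1 lie to the right of the band, and IGF1R and MUSK lie to the left of it, while most receptors lie within it.

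The receptors of endothelium and of mural cells lay above the median of all genes in the sorted library, apart from PDGFRA at -0.17. As plain ratios, 6 of the 9 ephrin receptors were above the median, and EPHA4, EPHA7 and EPHB2 were below it. Relative log2 ratios were 1.13 for TIE1, 0.83 for FLT1, 0.77 for TEK, 0.47 for KDR, 0.46 for EPHB4, 0.25 for FLT4 and 0.75 for PDGFRB. The endothelial markers that are not receptors of this class, 7 in number, summed to 151 TPM in the whole male tissue and 225 TPM in the FACS cells, with counts for all 7 in both. Their median relative log2 ratio was 0.50, with 6 of them above 0 and 2 passing 2-fold higher. PLVAP alone had 105 and 178 TPM, and the other 6 markers summed to 46.3 and 47.0 TPM. As plain TPM, ADGRF5, ADGRL4, CALCRL and APLNR were lower in the FACS cells, but relative to all genes only APLNR was, at -0.46. The 7 markers of mural cells and fibroblasts summed to 1081 TPM and 1619 TPM, with 3, DCN, FBLN1 and MGP, passing 2-fold higher. Their median relative log2 ratio was 0.67, with 4 of them above 0. MGP alone had 544 and 1064 TPM, and EDNRA had 4.64 and 5.00 TPM. The pericyte gene RGS5 had 140.4 TPM in the tissue and 67.5 TPM in the FACS cells. OGN with 117 and 47.8 TPM and MFAP4 with 66.8 and 29.6 TPM were lower in the FACS cells too. The 8 epithelial markers had a median relative log2 ratio of 0.05, between -0.90 for SLC4A5 and 1.29 for TTR, and 4 of them lay above 0. The part of other cell types in these receptor values was not tested.

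Immune and red blood cell markers differed more. The 11 immune markers summed to 945 TPM in the male tissue and 5226 TPM in the FACS cells, and 10 of them passed 2-fold higher, among them CD74, ADGRE1 and LYZ2, with C3AR1 at a relative log2 ratio of 0.39. The 4 haemoglobin genes summed to 8648 TPM in the tissue and 1659 TPM in the FACS cells, and all 4 passed 2-fold lower. Of the receptors known from macrophages and precursors of immune cells, AXL, FLT3 and MERTK had relative log2 ratios of 1.42, 0.85 and 0.58, under the median of 2.22 of the immune markers. KIT had -0.05. The part of immune cells in these values was not tested.

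Genes downstream of the receptors were below the median of all genes in the sorted cells, apart from MAP2K2 at 0.04. Of 11 such genes none passed 2-fold higher, where 10.9% of all genes did so, and the median of the list was -0.50. AKT1, a kinase of the PI3 kinase cascade, had 121 TPM in the tissue and 72.6 TPM in the FACS cells. Of 12 ligands and partners, 4 passed 2-fold higher and none lower, where 10.9% and 6.03% of all genes did so. The 4 were IGFBP7, IGFBP4, SDC4 and MDK, which encodes the growth factor midkine and had 4849 TPM in the tissue and 9226 TPM in the FACS cells. In lists this short, a count of 0 is near these shares. Both lists hold only genes that the study names among its highest expressed genes of the male choroid plexus.

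**Figure D4:**
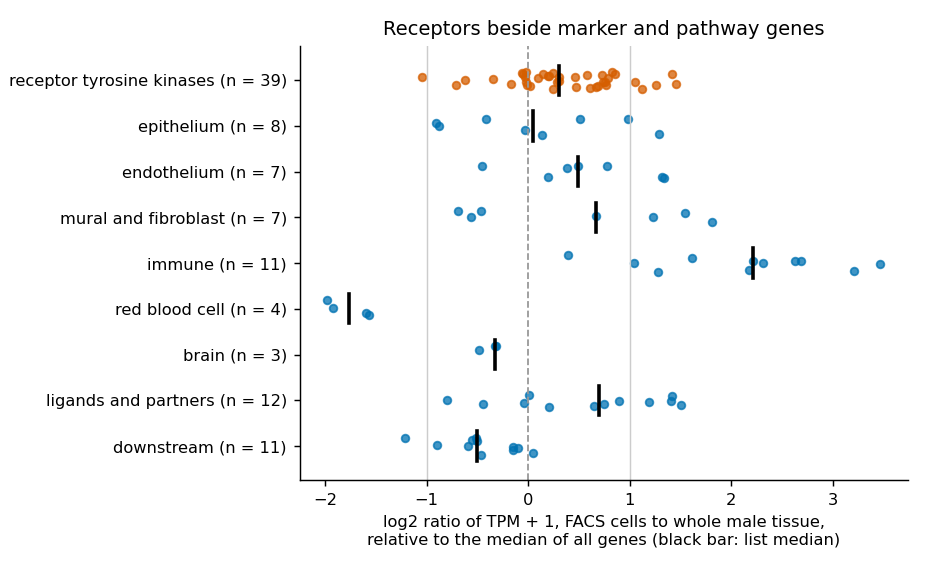
Log2 ratio of TPM + 1 in the FACS cells to the whole male tissue, relative to the median of all genes, for the 39 receptors (orange) and for lists of marker and pathway genes (blue); each point is a gene and black bars are list medians. The receptors spread from -1.05 to 1.46 around a median of 0.30, the immune markers lie at a median of 2.22 and the haemoglobin genes at -1.76.

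Promoter sequence is shown for FGFR2 as the most abundant receptor, for TIE1 and AXL as the most abundant of those called higher in the sorted cells, and for IGF1R as the receptor called lower. Each line gives the 250 bases before the transcription start, 5′ to 3′, from RefSeq on the build GRCr8, while the counts were made on Rnor_6.0. Capitals mark the motifs GGGCGG (the GC box), CCGGAA (a core bound by ETS factors) and TATAAA (the TATA box), searched on both strands.
FGFR2 (chr1:194280915-194281164, minus strand): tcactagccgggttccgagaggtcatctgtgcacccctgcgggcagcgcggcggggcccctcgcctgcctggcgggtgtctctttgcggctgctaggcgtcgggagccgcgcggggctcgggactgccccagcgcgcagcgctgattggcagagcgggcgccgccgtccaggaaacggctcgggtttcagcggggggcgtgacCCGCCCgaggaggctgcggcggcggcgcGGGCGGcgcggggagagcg
TIE1 (chr5:137304982-137305231, minus strand): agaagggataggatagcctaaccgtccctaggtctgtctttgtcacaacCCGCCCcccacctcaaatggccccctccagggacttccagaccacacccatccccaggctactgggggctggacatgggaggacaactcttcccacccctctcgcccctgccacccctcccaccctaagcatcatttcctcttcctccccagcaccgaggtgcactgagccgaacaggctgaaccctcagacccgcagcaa
AXL (chr1:90424010-90424259, minus strand): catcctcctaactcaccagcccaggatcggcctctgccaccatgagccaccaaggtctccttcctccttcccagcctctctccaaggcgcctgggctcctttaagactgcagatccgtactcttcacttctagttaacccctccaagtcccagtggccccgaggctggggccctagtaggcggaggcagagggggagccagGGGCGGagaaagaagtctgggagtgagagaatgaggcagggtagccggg
IGF1R (chr1:130959747-130959996, plus strand): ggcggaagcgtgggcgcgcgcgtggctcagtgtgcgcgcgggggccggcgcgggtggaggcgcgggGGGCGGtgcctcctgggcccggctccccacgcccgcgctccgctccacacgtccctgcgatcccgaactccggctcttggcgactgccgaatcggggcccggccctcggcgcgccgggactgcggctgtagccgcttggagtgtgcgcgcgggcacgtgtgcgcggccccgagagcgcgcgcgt
Promoters matched 32 of the 39 receptors by symbol, and FGFR1, NTRK2, PDGFRB, TEK, DDR2, EPHA4 and LOC102552659 were not matched. GC content of these 250 bases was 76.8% for FGFR2 and 79.6% for IGF1R, and 61.6% for both TIE1 and AXL. Over the 32 receptors the median was 64.4%, with a range of 47.2 to 82.0%, and over all 27457 promoters it was 52.0%. The GC box was in 21 of the 32 promoters (65.6%) and in 32.4% of all promoters, the ETS core in 3 (9.38%) and in 13.4% of all, and the TATA box in 3 (9.38%) and in 13.1% of all. The promoter of FGFR2 held 2 GC boxes, those of TIE1, AXL and IGF1R 1 each. A match is a description of the letters and not a binding site.

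Between the sexes, no receptor passed 2-fold in either direction, where 0.757% of all genes passed 2-fold lower and 0.62% higher in the female library. In the female choroid plexus 38 of the 39 receptors reached the cut-off, as did 96.6% of all genes that reached it in the male. MUSK did not, with 0.480 TPM from 30 expected counts. The relative log2 ratio of female to male lay between -0.34 and 0.55 with a median of -0.03, and 17 receptors lay above the median of all genes, as 50.0% of the 13869 genes tested do. That median was -0.16 before centring. The plain ratio was below 1 with its whole counting interval for 23 of the 39 receptors, where 48.1% of all genes were, above 1 for 3, where 6.06% were, and held 1 for 13.

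The receptors above 1 were LOC102552659, whose fractional counts make its level uncertain, at a ratio of 1.48 (1.11 to 1.94), EPHB3 at 1.27 (1.08 to 1.49) and DDR1 at 1.11 (1.06 to 1.16). The lowest were MUSK at 0.533 (0.331 to 0.844), EPHA2 at 0.629 (0.513 to 0.769), DDR2 at 0.672 (0.593 to 0.762), FLT4 at 0.684 (0.562 to 0.831) and FLT1 at 0.694 (0.652 to 0.738). FGFR2 and FGFR1 both stood at 1.01, and PDGFRA at 0.795 (0.774 to 0.816). Longer transcripts had lower ratios, the Spearman rho being -0.388 over the 39 receptors and -0.313 over all genes tested, as a description across genes of the same libraries. Of the 17 receptors with an effective length of 4000 bases or more, 13 lay below the median of all genes, against 9 of the 22 shorter ones. The medians were -0.12 and 0.05, and over all genes split at the same length they were -0.11 and 0.02. In the same libraries the immune markers summed to 945 TPM in male and 608 TPM in female tissue, the haemoglobin genes to 8648 and 4337 TPM and the endothelial markers to 151 and 125.3 TPM. The part of length or of these cells in the receptor ratios was not tested.

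**Figure D5:**
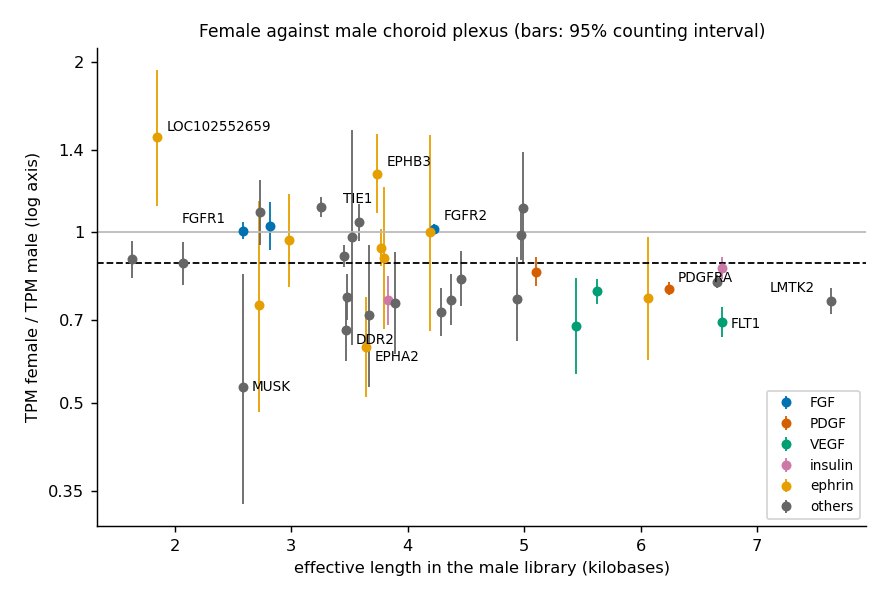
Ratio of TPM in the female to TPM in the male choroid plexus (log axis) against the effective transcript length in the male library in kilobases, for the 39 receptors coloured by ligand family; bars are 95% counting intervals and the dashed line is the median ratio of all genes (0.883). All receptors lie between 0.533 and 1.48, and most receptors of 4000 bases or more lie below the line, FGFR2 at 1.01 being an exception.

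The proximal tubule, another epithelium that moves large amounts of fluid, was compared with the male choroid plexus after the 13 mitochondrially encoded genes were removed from both and the rest rescaled. Then 9 of the 39 receptors reached 0.5 TPM, as did 40.5% of the 13670 genes that reached it in the choroid plexus. A count of 0 was listed for 29 receptors, while 58.3% of all genes that reached 0.5 TPM in male choroid plexus were. Among the 17 receptors with 10 TPM or more in male tissue, 12 were listed at 0, among them FGFR2, FGFR1 and NTRK2, and over all genes at that level the share was 46.8%. The receptors with no count included all of the FGF, insulin, Wnt and EGF families. Zeros in this library are given only as listed, since it had few genes with low counts, 2.65% of its genes with counts being under 10 against 15.8% in the male choroid plexus.

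The 9 receptors above the cut-off had between 45 and 105 expected counts each, and MUSK had 1. EPHA7, which binds ephrin-A ligands, was the highest with 3.12 TPM after rescaling, against 0.895 TPM in the male choroid plexus, and the only receptor with more TPM in the tubule. DDR1 had 2.73 TPM against 59.0 TPM in the choroid plexus, or 21.6-fold less. TEK had 2.33 TPM against 10.1 TPM, DDR2 had 1.26 TPM against 8.16 TPM, and MERTK had 1.22 TPM against 8.73 TPM. KDR, FLT1, PDGFRA and LMTK2 lay between 0.574 and 0.968 TPM, and PDGFRA was 127-fold below its level in the choroid plexus.

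Relative to the median of all genes, which was -2.27 on the log2 scale, 18 receptors passed 2-fold lower in the tubule, where 34.7% of all genes did so, and 7 passed 2-fold higher, where 33.7% did so. Of those 7, 5 were listed at 0 in the proximal tubule and 1, MUSK, had 1 count, so that their place followed from the low median and the pseudocount and not from a level in the tubule. The same holds for 13 of the 18 receptors above the median, which were listed at 0. With ratios not taken relative to the median, 35 receptors passed 2-fold lower and only EPHA7 passed 2-fold higher.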

How the data were processed

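RNA of 4 pools of rat tissue or cells was sequenced by the authors as 1 paired-end library each, from 5 animals or 10 (FACS cells). Per the labels and the study's methods, the authors aligned reads with STAR 2.7.2a to Rnor_6.0 and ran RSEM 1.3.3. The deposited files give for each gene ID an expected count (an estimate that need not be whole), a TPM, an effective length in bases and an FPKM, which was not used. The expected counts summed to 28324976 (male), 25376480 (female), 23873318 (FACS cells) and 25130213 (proximal tubule), where the floor of 3 counts was 1.06e-05, 1.18e-05, 1.26e-05 and 1.19e-05% of the total. The strand setting is not given in the sources used here, so genes that overlap or share reads are uncertain.

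Members and gene names came from the study's supplementary lists, which name 2452 of the IDs, and 0 IDs matched the RefSeq table. Members and lists were chosen with earlier results of these data known. All members, and the genes of the lists of ligands and partners, downstream genes and cell type markers, could be named in the text. Sums, ratios, exact Poisson intervals of levels and exact conditional binomial intervals of ratios, from counts rounded to whole numbers, came from scripts in Python 3.11.15 using scipy 1.17.1, pandas 2.3.3, numpy 2.4.6 and, for plots, matplotlib 3.10.9, and tested on simulated data. The values of some genes downstream of the receptors are not reported here. No test between conditions was possible with 1 library each. Alternatives were other cut-offs and pseudocounts, removal of the 10 highest genes, ratios not centred, CPM from the expected counts, no filter, the female library as the tissue and mitochondrially encoded genes kept.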

Additional observations from a re-analysis of the deposited data

How the results depend on the processing

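No replicate could be left out and no paired analysis was possible because each condition has 1 library. A cut-off of 5 TPM left 24 receptors in the male and the female choroid plexus and 22 in the FACS cells, and in the proximal tubule 5 receptors remained at 1 TPM and 0 at 5 TPM. In the FACS cells against the tissue, no receptor was 2-fold higher without centring or without a filter on low values, and 3 were 2-fold lower in both. The number 2-fold lower was 2 with a pseudocount of 0.1 and 2 with CPM, ERBB4 being added to IGF1R both times, and 0 against the female tissue. Where only counting intervals wholly past 2-fold were called, an alternative chosen after seeing the data, 4 receptors were higher and 1 lower. With plain TPM ratios and no pseudocount, also chosen after seeing the data, 5 were higher and 2 (IGF1R and MUSK) lower, and 26 in place of 28 were above the median of all genes. In the proximal tubule, 1 receptor was 2-fold higher and 35 lower without centring or without a filter, and 2 (EPHA7 and TEK) were higher with CPM. The median relative log2 ratio of the receptors there was -0.74 and became -0.77 and -1.02 with pseudocounts of 0.1 and 0.5, -0.96 without the 10 highest genes, -1.58 with CPM, -0.70 against the female tissue and -0.19 with mitochondrially encoded genes kept. Without the 10 highest genes of the male library, the family sums became 471 TPM (FGF), 161 TPM (PDGF), 66.3 TPM (VEGF), 53.0 TPM (insulin), 47.2 TPM (ephrin) and 521 TPM (others). In the female tissue the sums that moved past counting error were 83.7 TPM (PDGF), 32.01 TPM (VEGF), 28.5 TPM (insulin) and 301 TPM (others), and in the FACS cells 227 TPM (FGF), 72.4 TPM (PDGF), 12.5 TPM (insulin), 33.2 TPM (ephrin) and 309 TPM (others). The other 57 values lay within 1.5 times the count reported or within counting error, which does not mean the same genes: in the tubule 10 receptors were higher with mitochondrially encoded genes kept, 25 were lower with CPM, and with a pseudocount of 0.1 DDR2, MERTK and TEK took the places of AATK, EPHA4 and EPHB6 among the 7 higher. Depth limits receptors near the cut-off, since 5 receptors of the male library had under 100 expected counts. Protein sequences were not analysed here.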

Other observations

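The effective length that RSEM gives a gene is a mean over its transcripts weighted by their abundance, so a shift between libraries beyond that of most genes accompanies a shift in the estimated transcript mix. Between the FACS cells and the male choroid plexus, the median shift over genes with at least 10 expected counts in both was -17.1 bases, and 31 of the 39 receptors lay within 20 bases of it. AXL stood out with 3475 bases in the male tissue, 3411 bases in the female tissue and 3825 bases in the FACS cells. LMTK2 had 7639, 7786 and 7929 bases, DDR1 had 3250.4, 3306 and 3337 bases, and KDR had 5624, 5711 and 5697 bases. In the other direction, FGFR1 had 2587, 2576 and 2482 bases and FGFR2 had 4226, 4218 and 4166 bases. TIE1 and EPHB2 were the other receptors outside that range. All of these were picked after their values were seen, each from 1 library per condition and with no replicate check, and transcript levels were not analysed here.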
